A study of Mus musculus with 9 samples.

Results

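Perineuronal nets are lattices of extracellular matrix that wrap the cell bodies and proximal dendrites of certain neurons. The 10 genes described here encode their building parts. They were chosen by symbol from a list of lecticans, link proteins, tenascin-R, hyaluronan synthases and the receptor phosphatase Ptprz1. The choice was made with earlier results of these data known. All 10 were found among the 54532 genes of the table. They were Acan, Bcan, Ncan, Vcan, Hapln1, Hapln4, Tnr, Has2, Has3 and Ptprz1. RNA came from the brain cortex of adult male mice aged 8 to 12 weeks, with 3 mice each of the inbred strains C57BL6/J (B6), C3H/HeJ (C3H) and WSB/EiJ (WSB). The mouse reference genome is that of B6, C3H is likewise a classical laboratory strain, and WSB descends from wild mice. The labels name no transgene, drug or surgery for any of these mice. Transcripts were measured in whole cortex, so matrix of the nets and other matrix are not separated. The strains were compared because the study asked which genes on chromosome 8 differ in cortical expression between strains whose brains differ in infarct size after an arterial occlusion.

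In a net, hyaluronan forms the backbone. Hyaluronan synthases spin this sugar chain out through the plasma membrane, the lecticans aggrecan, brevican, neurocan and versican bind it with one end, link proteins lock that bond, and tenascin-R ties the other ends of the lecticans together. In cortex the nets are densest around fast-spiking parvalbumin interneurons, mature after early postnatal life and are known for restricting plasticity. Neurons make aggrecan and most link protein, astrocytes and neurons make neurocan and brevican, and cells of the oligodendrocyte lineage are a main source of tenascin-R.

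The members whose levels lay without overlap below B6 in both other strains were Ncan and Tnr, and their promoters are shown for that reason, as 300 bases around the start of the gene (RefSeq, GRCm38.p6). The Ncan window lies at chr8:70120795-70121094 on the minus strand and the Tnr window at chr1:159523519-159523818 on the plus strand. Capitals mark matches on either strand to the TATA box motif TATAAA, the CCAAT box motif CCAAT, the GC box motif GGGCGG, the E-box motif CACGTG and the cAMP response motif TGACGTCA, which do not overlap each other here.
Ncan: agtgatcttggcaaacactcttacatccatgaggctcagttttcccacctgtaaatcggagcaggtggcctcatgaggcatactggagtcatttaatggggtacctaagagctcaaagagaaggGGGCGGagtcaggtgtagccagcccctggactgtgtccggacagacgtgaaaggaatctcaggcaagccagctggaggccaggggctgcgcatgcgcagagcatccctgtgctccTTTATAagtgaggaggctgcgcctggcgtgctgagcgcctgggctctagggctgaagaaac
Tnr: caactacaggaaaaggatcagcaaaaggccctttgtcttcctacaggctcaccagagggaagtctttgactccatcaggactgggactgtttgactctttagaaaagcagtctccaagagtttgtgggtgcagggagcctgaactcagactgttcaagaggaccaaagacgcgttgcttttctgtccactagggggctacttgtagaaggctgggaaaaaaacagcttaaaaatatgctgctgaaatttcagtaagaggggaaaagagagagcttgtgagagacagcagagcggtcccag

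The Ncan window held 1 match to the GC box motif and 1 to the TATA box motif, the latter on the opposite strand, and the Tnr window held none of the 5 motifs. Of 32851 promoters of the same length, the GC box motif was in 35.7%, the TATA box motif in 13.6%, the CCAAT box motif in 37.4%, the E-box motif in 7.15% and the cAMP response motif in 1.79%. G and C made up 56.7% of the Ncan window and 48% of the Tnr window, against a median of 52.7% over all promoters. Of the 10 members, 7 were matched in the promoter table, and Hapln4, Has2 and Has3 were not. A match is a description of the letters and not a site of binding.

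Expression is given as FPKM, the fragments on a gene relative to its length and to a size of the library. In the deposited values this size was not the plain total of reads on genes. The values were already scaled so that the median ratio of genes to their geometric mean over the 9 mice was equal in every library. Multiplied by gene length, all values of a library were whole multiples of the worth of a single read, so the reads behind them could be recovered. Between 16317439 and 21562429 reads per mouse lay on genes, with medians of 19918248 in B6, 19103630 in C3H and 16877233 in WSB. The library of C3H replicate 2 stood apart from the others. Without it, 2301 genes passed the test between C3H and B6 in place of 956. Values without it are therefore added to the comparisons with C3H. Differences are log2 fold changes of FPKM + 0.1 from limma, with Benjamini-Hochberg adjustment over all genes averaging 0.1 FPKM or more across both strains, and the threshold for a call was an adjusted p of 0.05.

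**Figure D1:**
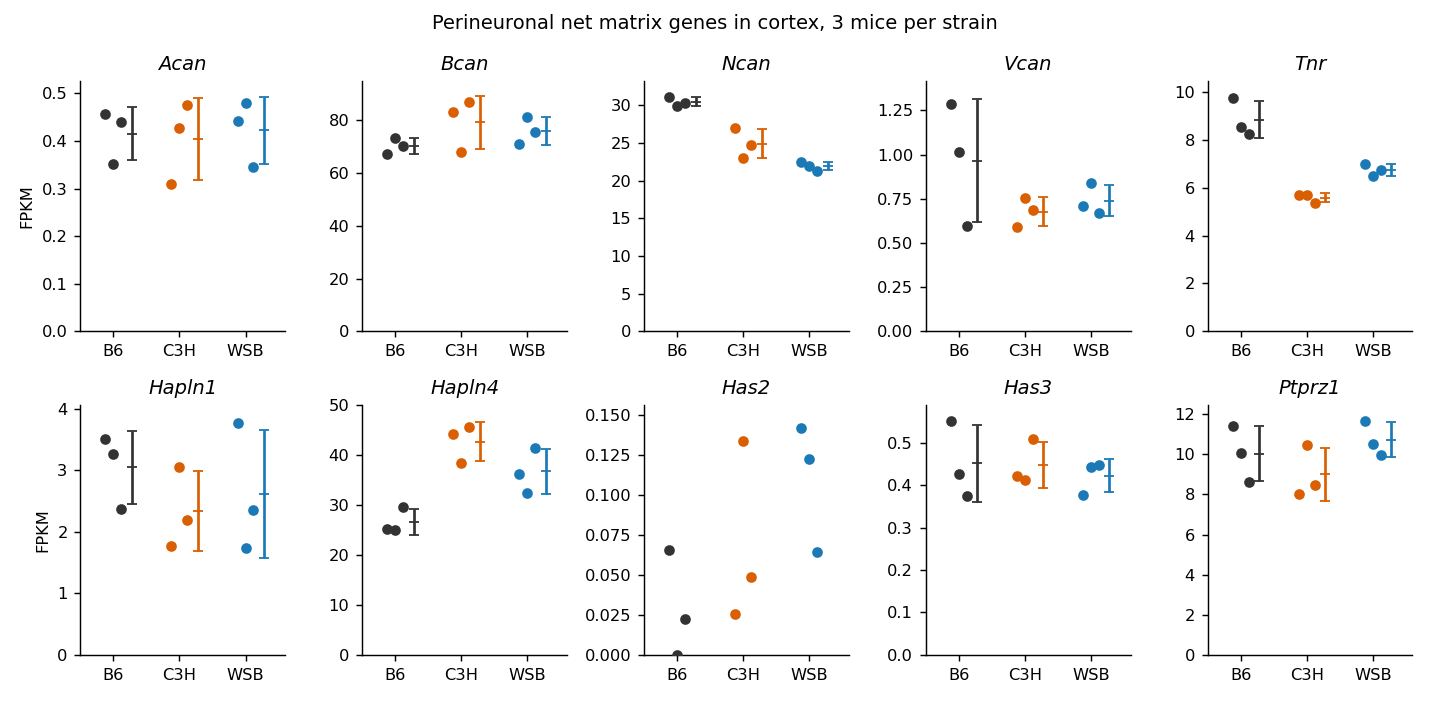
FPKM of each of the 10 genes (vertical axes, linear from 0) in the 3 mice of each strain, with points for mice and, beside them, the mean and SD; no mean is drawn for Has2, which had 0 to 11 reads. Ncan and Tnr are lower in C3H and WSB than in every B6 mouse, Hapln4 is higher, and the strains overlap for the other genes.

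The 10 genes spanned levels from 75.2 FPKM for Bcan to 0.0695 FPKM for Has2, as means over the 9 mice. Bcan was followed by Hapln4 at 35.4 FPKM, Ncan at 25.8, Ptprz1 at 9.92, Tnr at 7.06, Hapln1 at 2.67, Vcan at 0.794, Has3 at 0.440 and Acan at 0.414. Bcan stood clear of Hapln4 in every mouse. The ranges over the 9 mice overlapped for the neighbours Hapln4 and Ncan, Ptprz1 and Tnr, and Has3 and Acan. Aggrecan, a defining lectican of mature nets, had the lowest transcript level of the 4 lecticans here, on 43 to 70 reads per mouse.

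Of the 9 members tested, 1 was called between WSB and B6, where 5.90% of all tested genes were called. This was Ncan, which was lower in WSB. Between C3H and B6, 2 of 9 were called, Tnr as lower and Hapln4 as higher in C3H, against 4.64% of all tested genes. Between WSB and C3H none of the 9 was called by limma, against 5.74% of all tested genes. In that comparison 1 member, Tnr, had an unadjusted p under 0.05, and limma with voom weights on the recovered reads called none as well. Over all tested genes, an unadjusted p under 0.05 was found for 20.4% between WSB and B6, 24.1% between C3H and B6 and 23.8% between WSB and C3H, and voom weights called 7.43%, 7.22% and 8.53% in the same order. Without C3H replicate 2, Tnr and Hapln4 were again called between C3H and B6, where 11.2% of all tested genes then passed, and no member between WSB and C3H, where 9.71% did. Has2 was under the level set for testing in all 3 comparisons.

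Counted by overlap, 3 of 9 members did not overlap between WSB and B6, against 26.0% of all tested genes. The count was also 3 of 9 between C3H and B6, against 28.9%. It was 2 of 9 between WSB and C3H, against 28.6%. Ncan, Hapln4 and Tnr made up the first and the second count, and Ncan and Tnr the third. These shares are near those of all genes. The median log2 fold change of the 9 was -0.07 for WSB against B6, -0.16 for C3H against B6 and 0.06 for WSB against C3H. Medians over all tested genes lay within 0.01 of 0, which the scaling of the deposited values largely fixes. They are therefore no independent background for the 9. With rescaling to total reads, the medians over all tested genes were 0.03, -0.02 and 0.05 in the same order. Both comparisons with B6 use the same 3 B6 mice.

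**Figure D2:**
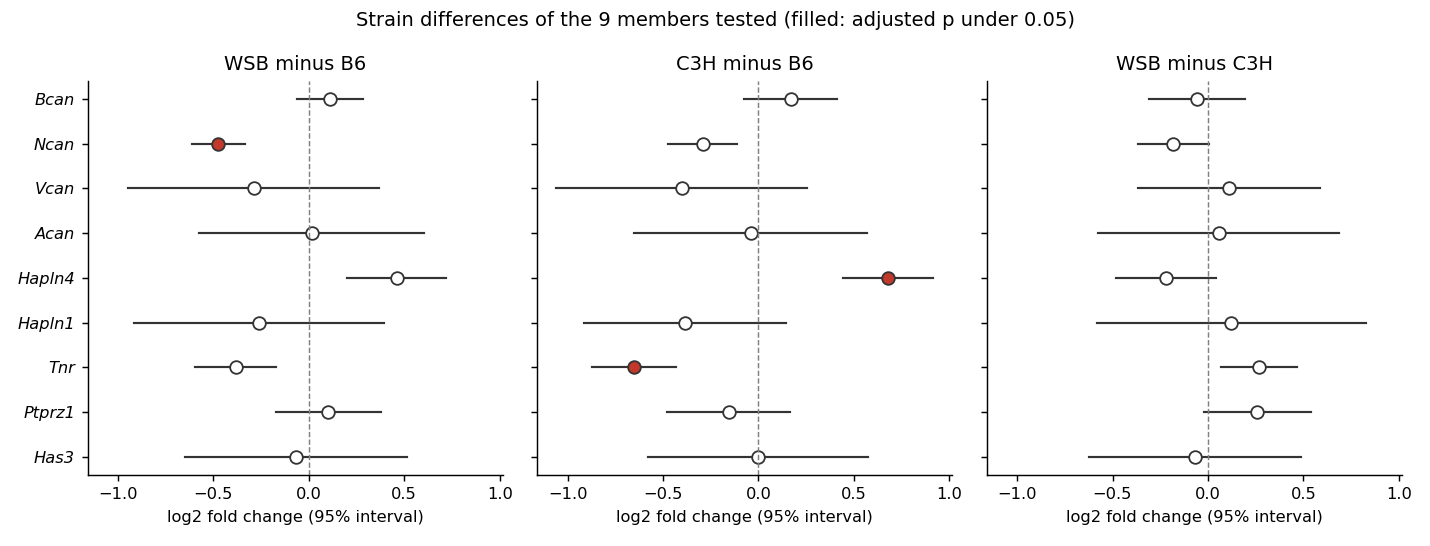
Log2 fold change (horizontal axis) of the 9 tested members between each pair of strains, with 95% intervals as bars; filled points have an adjusted p under 0.05. Ncan is filled for WSB minus B6, Hapln4 and Tnr for C3H minus B6, and none for WSB minus C3H.

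Among the 4 lecticans, neurocan was the one called. Ncan (chromosome 8, 70093085 to 70120873, minus strand, GRCm38 as for all coordinates here) encodes a chondroitin sulfate proteoglycan that is most abundant in the young brain. It had 31.2, 29.9 and 30.3 FPKM in the B6 mice, 27.0, 23.1 and 24.7 in the C3H mice, and 22.5, 22.0 and 21.3 in the WSB mice. Every B6 mouse was above every C3H mouse, and every C3H mouse was above every WSB mouse. B6 mice averaged 30.5 ± 0.6 FPKM (SD, n = 3), C3H mice 24.9 ± 2.0 (SD, n = 3) and WSB mice 21.9 ± 0.6 (SD, n = 3). In WSB it fell by 28.1% of the B6 mean, a log2 fold change of -0.47 (SE 0.06, 95% interval -0.61 to -0.33, adjusted p = 0.00460), and the call was kept when any one of the 6 mice was left out. For C3H against B6 the log2 fold change was -0.29 (95% interval -0.48 to -0.11) and missed the threshold (adjusted p = 0.0845). Without C3H replicate 2 it was -0.24 (adjusted p = 0.0796). WSB against C3H gave -0.18 (adjusted p = 0.217), and -0.23 without C3H replicate 2 (adjusted p = 0.0908).

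The fold change of Ncan in C3H depended on the correction for base composition. With the trend of fold change on transcript GC content removed, it was -0.41 for Ncan in C3H and passed (adjusted p = 0.0130). In whole cortex, fewer cells of a type and less RNA per cell cannot be told apart. The summed level of 8 astrocyte markers was 746 to 811 FPKM (B6), 717 to 758 (C3H) and 740 to 762 (WSB). None of these markers was called against B6 in either strain by limma or with voom weights, while 3 in WSB and 2 in C3H had an unadjusted p under 0.05. Without C3H replicate 2, 2 of 8 were called lower in C3H, Slc1a2 at -0.45 and Aqp4 at -0.40, beside 11.2% of all tested genes. With all mice, Slc1a2, Aqp4, Slc1a3 and Aldoc averaged lower in C3H than in B6, and S100b, Gfap, Gja1 and Aldh1l1 higher. S100b had 101 to 105 FPKM in C3H beside 85.1 to 93.2 in B6. The median log2 fold change of the 8 in C3H was 0.03. The part of astrocytes in the Ncan values was not tested.

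Bcan (chromosome 3, 87987531 to 88000230, minus strand) encodes brevican, the main lectican of the adult brain and a substrate of ADAMTS proteases. Its levels were 67.1, 73.2 and 70.4 FPKM in B6, 83.2, 68.0 and 86.8 in C3H, and 71.0, 81.3 and 75.5 in WSB. The strains overlapped, with log2 fold changes of 0.11 for WSB against B6 (95% interval -0.06 to 0.29) and 0.17 for C3H against B6 (95% interval -0.07 to 0.41). C3H replicate 2 was the lowest C3H mouse for Bcan, and without it the C3H value was 0.28 (adjusted p = 0.0577) and WSB against C3H went from -0.06 to -0.16. With the trend on transcript GC content removed, the fold change of Bcan in C3H against B6 changed sign. The lectican shares given next were computed without that correction. In the summed FPKM of the 4 lecticans, brevican made up 68.8% ± 1.5 (SD, n = 3) for B6, 75.2% ± 1.7 (SD, n = 3) for C3H and 76.6% ± 1.4 (SD, n = 3) for WSB. Neurocan made up 29.9% ± 1.2 (SD, n = 3), 23.7% ± 1.6 (SD, n = 3) and 22.2% ± 1.4 (SD, n = 3) in the same order. The neurocan share was 28.7% to 31.1% in the B6 mice, above the 21.0% to 25.0% of all mice of the other strains. With 3 mice against 3 an exact permutation test cannot give a p below 0.10, so the shares are given without a test. The lectican sum itself averaged 102 FPKM in B6, 105 in C3H and 99.0 in WSB.

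Versican and aggrecan were scarce. Vcan (chromosome 13, 89655312 to 89742509, minus strand) encodes a large lectican of white matter and of the perinatal matrix. It had 1.29, 1.01 and 0.594 FPKM in B6, 0.591, 0.753 and 0.688 in C3H, and 0.711, 0.839 and 0.670 in WSB. The B6 mice ranged more widely than those of either other strain, and the 95% intervals of -0.95 to 0.37 in WSB and -1.06 to 0.26 in C3H are wide on the log2 scale. Without C3H replicate 2 the log2 fold change in C3H was -0.47 in place of -0.40. Acan (chromosome 7, 79053483 to 79115099, plus strand) had 0.456, 0.351 and 0.440 FPKM in B6, 0.309, 0.428 and 0.476 in C3H, and 0.443, 0.479 and 0.344 in WSB. Its log2 fold changes against B6 were 0.01 in WSB (95% interval -0.57 to 0.60) and -0.04 in C3H (95% interval -0.65 to 0.57), so at this depth a difference of these sizes in either direction was not detectable. Without C3H replicate 2 the value in C3H was -0.08.

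Of both link proteins on the list, Hapln4 was called. Hapln4, also called brain link protein 2, joins hyaluronan and brevican in perisynaptic matrix and lies on chromosome 8 from 70083457 to 70090862 on the plus strand. Its levels were 25.2, 25.0 and 29.7 FPKM in B6, 44.2, 38.3 and 45.6 in C3H, and 36.3, 32.5 and 41.5 in WSB. All C3H and WSB mice were above all B6 mice, while C3H and WSB overlapped. B6 mice averaged 26.6 ± 2.7 FPKM (SD, n = 3), C3H mice 42.7 ± 3.9 (SD, n = 3) and WSB mice 36.7 ± 4.6 (SD, n = 3). Hapln4 rose 1.60-fold in C3H, a log2 fold change of 0.68 (SE 0.10, 95% interval 0.44 to 0.92, adjusted p = 0.0106). This call was lost when B6 replicate 2 (adjusted p = 0.0567), C3H replicate 1 (adjusted p = 0.0599) or C3H replicate 3 (adjusted p = 0.0511) was left out, and was kept without C3H replicate 2, at 0.76 (adjusted p = 0.0104). In WSB the log2 fold change of 0.46 (95% interval 0.20 to 0.72) missed the threshold (adjusted p = 0.0600). WSB against C3H gave -0.22 (95% interval -0.48 to 0.04, adjusted p = 0.274), and -0.30 without C3H replicate 2 (adjusted p = 0.140).

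Hapln4 is known from inhibitory synapses. Pvalb, the marker of the interneurons that nets surround, had 55.6, 52.4 and 64.9 FPKM in B6, 69.2, 72.3 and 93.6 in C3H, and 70.5, 90.4 and 74.4 in WSB. Its values did not overlap with B6 in either strain, and its log2 fold changes of 0.44 in WSB (adjusted p = 0.0846) and 0.43 in C3H (adjusted p = 0.115, or 0.49 and 0.0886 without C3H replicate 2) missed the threshold. Kcnc1, a potassium channel of the same neurons, had log2 fold changes of -0.08 in WSB and -0.04 in C3H. None of the 8 parvalbumin interneuron markers was called by limma against B6 in either strain, and their summed level was 197 to 223 FPKM (B6), 204 to 251 (C3H) and 212 to 270 (WSB). With voom weights Pvalb was called in WSB, and against B6 it alone had an unadjusted p under 0.05 in each strain. The part of these cells in the Hapln4 difference was not tested.

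Hapln1 (chromosome 13, 89539796 to 89611652, plus strand) encodes the cartilage link protein, which neurons with nets also make. It had 3.50, 3.26 and 2.37 FPKM in B6, 1.77, 3.05 and 2.19 in C3H, and 3.76, 1.73 and 2.36 in WSB. The strains overlapped, and against B6 the 95% interval was -0.92 to 0.39 for WSB and -0.91 to 0.15 for C3H. C3H replicate 2 was the highest C3H mouse, and without it the log2 fold change in C3H was -0.59 (adjusted p = 0.110) in place of -0.38. Of the remaining link proteins, Hapln2, a link protein of nodes of Ranvier in white matter, had 9.35 FPKM over the 9 mice, and its log2 fold changes against B6 were 0.09 in WSB and 0.04 in C3H. Hapln3 had 0.223, 0.395 and 0.468 FPKM in B6, 0.658, 0.455 and 0.396 in C3H, and 0.582, 0.756 and 0.561 in WSB, with no call in any comparison (adjusted p = 0.239 for WSB against B6).

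Members of both families lie beside each other in the genome. Hapln4 and Ncan run towards each other with 2222 bases between their ends, inside the interval of chromosome 8 that the study mapped between WSB and B6. The pair lies outside the narrower interval mapped between C3H and B6, to which the study reduced its candidate genes. Acan and Hapln3 are separated by 2 bases, Bcan and Hapln2 by 21519 and Hapln1 and Vcan by 43659. In both other strains Ncan lay below and Hapln4 above all B6 mice. In neither strain were both genes called, since only Ncan passed in WSB and only Hapln4 in C3H. The ratio of Ncan to Hapln4 FPKM was 1.02 to 1.24 in the B6 mice, 0.542 to 0.610 in the C3H mice and 0.514 to 0.677 in the WSB mice. Within 500 kb on either side of the pair, 2 genes were called higher and 2 lower of 45 tested between WSB and B6, beside 5.90% of all tested genes. Between C3H and B6, 3 of 46 were called higher and 2 lower, beside 4.64% of all tested genes. Between WSB and C3H, 1 of 46 was called higher and 2 lower, beside 5.74%. The median log2 fold change of these neighbours against B6 was 0.03 in WSB and 0.19 in C3H, and it was -0.16 for WSB against C3H.

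**Figure D3:**
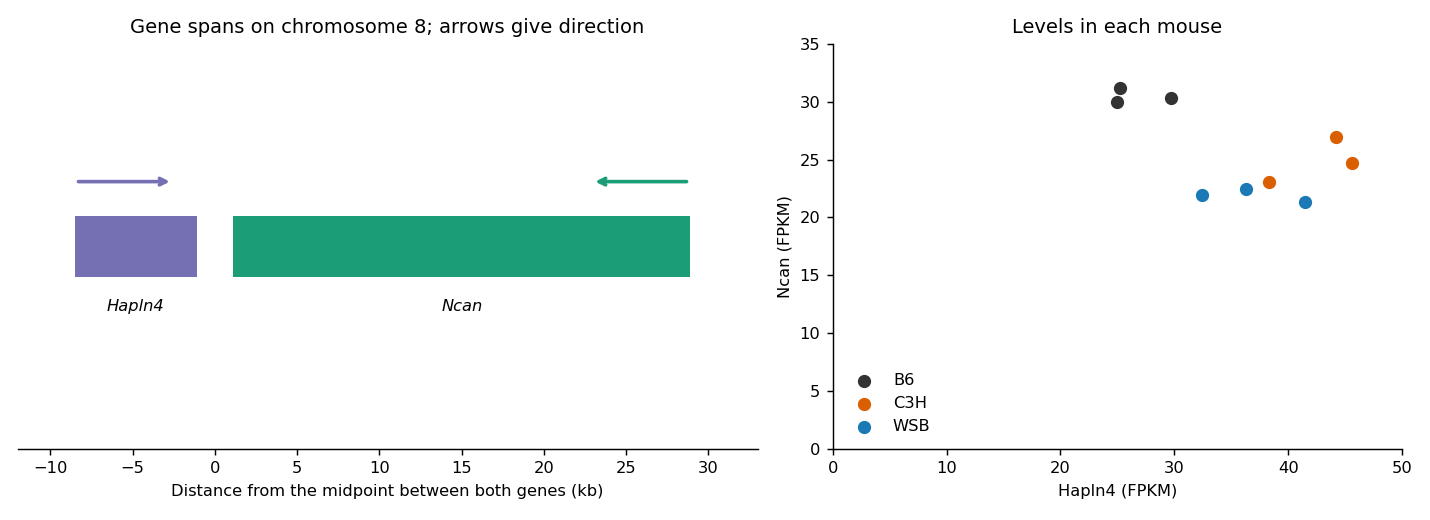
Left, spans of Hapln4 and Ncan along chromosome 8 as distance from the midpoint between them (kb), with arrows in the direction of transcription. Right, Ncan against Hapln4 (FPKM, linear axes) in each of the 9 mice, where the B6 mice lie at higher Ncan and lower Hapln4 than all C3H and WSB mice.

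Tenascin-R, the crosslinker, showed the largest fall of any member. Tnr lies on chromosome 1 from 159523769 to 159931729 on the plus strand and encodes a trimeric glycoprotein that binds the free ends of lecticans. Its levels were 9.75, 8.54 and 8.27 FPKM in B6, 5.70, 5.70 and 5.35 in C3H, and 7.01, 6.49 and 6.73 in WSB. The 3 strains did not overlap, with C3H lowest and WSB between the others. B6 mice averaged 8.85 ± 0.79 FPKM (SD, n = 3), C3H mice 5.58 ± 0.20 (SD, n = 3) and WSB mice 6.75 ± 0.26 (SD, n = 3). In C3H Tnr fell by 36.9% of the B6 mean, a log2 fold change of -0.65 (SE 0.09, 95% interval -0.87 to -0.43, adjusted p = 0.00927), and it passed without any one of the 6 mice, C3H replicate 2 included (-0.67, adjusted p = 0.0178). In WSB the log2 fold change was -0.38 (95% interval -0.59 to -0.17) and missed the threshold (adjusted p = 0.0542). WSB against C3H gave 0.27 (95% interval 0.07 to 0.47, adjusted p = 0.116), and 0.28 without C3H replicate 2 (adjusted p = 0.0952).

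Because oligodendrocyte lineage cells make Tnr, their markers were read beside it. In C3H none of the 8 mature oligodendrocyte markers was called against B6, none had an unadjusted p under 0.05 and voom weights called none, and their median log2 fold change was -0.07. None of the 8 precursor markers was called there either, by limma or with voom weights, and 2 had an unadjusted p under 0.05. The summed precursor level was 115 to 119 FPKM in B6 and 114 to 141 in C3H. In WSB the mature markers summed to 472 to 674 FPKM, beside 866 to 1087 in B6. All 8 mature markers lay without overlap below B6 in WSB, their median log2 fold change was -0.69, and 2 of 8 were called, Cldn11 and Mobp, beside 5.90% of all genes called and 26.0% without overlap. An unadjusted p under 0.05 was found for 8 of 8, and voom weights called 7 of 8. The precursor sum was 85.5 to 102 FPKM in WSB. Of the 8 precursor markers limma called 0 there, 3 had an unadjusted p under 0.05 and voom weights called 1, Sox10. Olig1, Sox10 and Gpr17, 3 of 8, lay without overlap below B6 in WSB. The median log2 fold change of the 8 precursor markers there was -0.18. Neu4 averaged higher in WSB than in B6, at 2.80 against 2.33 FPKM, and Pdgfra was nearly level, at 4.41 against 4.48. Over all tested genes, 20.4% had an unadjusted p under 0.05 and 7.43% were called with voom weights. The part of oligodendrocyte lineage cells in the Tnr values of either strain was not tested.

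Ptprz1 (chromosome 6, 22875502 to 23052916, plus strand) encodes a receptor phosphatase with chondroitin sulfate chains, whose secreted form phosphacan binds tenascin-R. It had 11.4, 10.04 and 8.64 FPKM in B6, 8.03, 10.5 and 8.48 in C3H, and 11.7, 10.5 and 9.99 in WSB. The strains overlapped, with log2 fold changes against B6 of 0.10 in WSB (95% interval -0.17 to 0.38) and -0.16 in C3H (95% interval -0.48 to 0.17). C3H replicate 2 was the highest C3H mouse, and without it the values were -0.27 for C3H against B6 (adjusted p = 0.211) and 0.37 in place of 0.26 for WSB against C3H (adjusted p = 0.0605).

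The hyaluronan synthases were the least expressed members beside aggrecan. Has3 (chromosome 8, 106870242 to 106884566, plus strand) had 0.551, 0.427 and 0.375 FPKM in B6, 0.421, 0.413 and 0.509 in C3H, and 0.377, 0.444 and 0.446 in WSB. The strains overlapped, and its log2 fold changes against B6 were -0.07 in WSB (95% interval -0.65 to 0.51) and -0.001 in C3H (95% interval -0.58 to 0.57), or 0.04 without C3H replicate 2. Has3 shares 704 bases with Chtf8 on the opposite strand, which had up to 1637 reads where Has3 had 40 to 63, and the strand setting of the counting is not given in the sources used here, so the Has3 values are uncertain. Has2 (chromosome 15, 56665627 to 56694539, minus strand) makes long hyaluronan chains and had 5, 0 and 2 reads in B6, 2, 11 and 4 in C3H, and 10, 9 and 5 in WSB. The 0 in B6 replicate 2 allows up to 3 reads, or 0.0351 FPKM, counting error only. At these counts no comparison of Has2 was made.

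**Figure D4:**
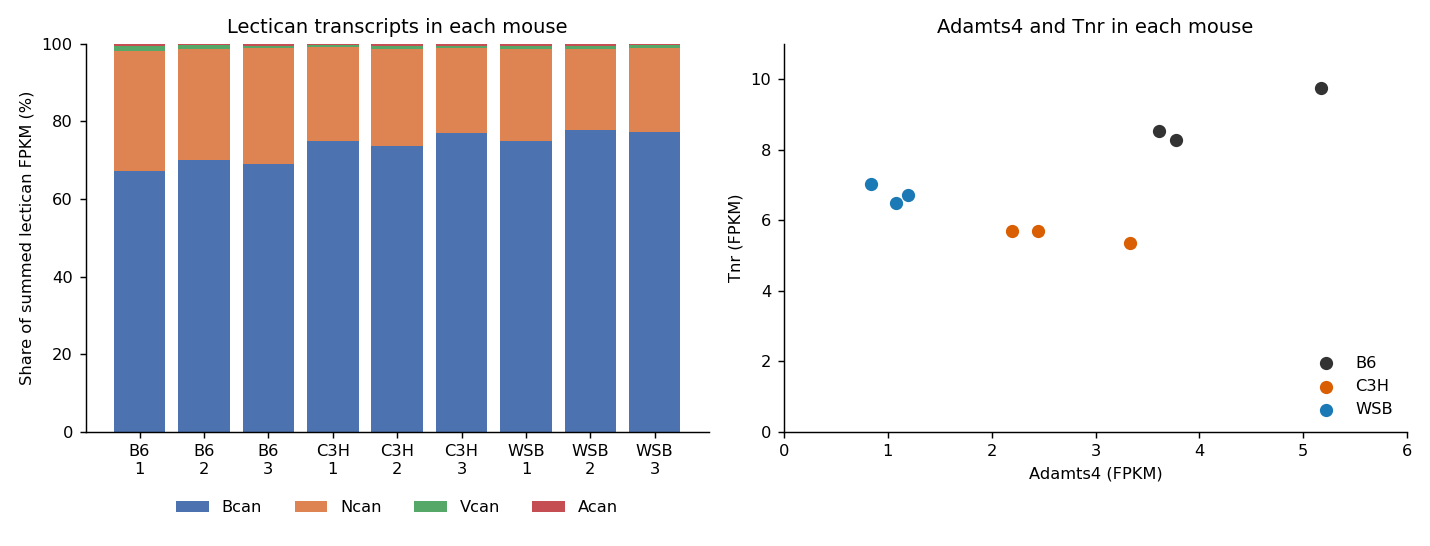
Left, share of each lectican in the summed lectican FPKM of each mouse (%, stacked bars from 0). Right, Tnr against Adamts4 (FPKM, linear axes) in each mouse. The Ncan share is 28.7% to 31.1% in B6 and at most 25.0% elsewhere, and the WSB mice lie lowest in Adamts4 while the C3H mice lie lowest in Tnr.

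The enzymes and partners of the net were read from a list of 89 other brain matrix genes. Between WSB and B6, 4 of 86 tested were called, 1 higher and 3 lower, against 5.90% of all genes tested. Between C3H and B6 limma called none of 86, although 24 had an unadjusted p under 0.05 and voom weights called 3, where 4.64%, 24.1% and 7.22% of all genes did so. Without C3H replicate 2, 9 of these genes were called, beside 11.2% of all genes. Between WSB and C3H, 2 of 87 were called, beside 5.74% of all genes, and 6 without C3H replicate 2, beside 9.71%.

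The largest difference of the list was in Adamts4, a protease that cleaves brevican and aggrecan. It had 5.17, 3.61 and 3.78 FPKM in B6, 2.45, 2.20 and 3.33 in C3H, and 0.838, 1.08 and 1.19 in WSB, on 67 to 105 reads per WSB mouse and 351 to 445 per B6 mouse. The 3 strains did not overlap, with WSB lowest. In WSB Adamts4 fell by 75.2% of the B6 mean, a log2 fold change of -1.91 (SE 0.19, adjusted p = 0.00152), and the call was kept without any one of the 6 mice. For C3H against B6 the log2 fold change of -0.64 missed the threshold (adjusted p = 0.115, or -0.52 and 0.148 without C3H replicate 2). Oligodendrocytes express Adamts4, and the sums of mature oligodendrocyte markers given above were also lower in WSB. Their part in the Adamts4 difference was not tested.

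Other calls were smaller and lost when single mice were left out. Ptn encodes pleiotrophin, a growth factor that binds chondroitin sulfate and Ptprz1. It had 124, 115 and 106 FPKM in B6 and 84.1, 68.0 and 83.5 in WSB, without overlap, a log2 fold change of -0.55 (adjusted p = 0.0249), and it passed in 2 of 6 fits that left out a mouse, those without B6 replicate 3 or WSB replicate 2 (adjusted p = 0.0489 to 0.0973 over the 6). Spock1, which encodes testican, a brain proteoglycan, had a log2 fold change of -0.36 in WSB (adjusted p = 0.0448) and passed in 1 of 6 such fits, without WSB replicate 1 (adjusted p = 0.0449 to 0.133 over the 6). Mmp15, a membrane-bound matrix metalloproteinase, was higher in WSB, at 0.61 (adjusted p = 0.0464), and passed in none of the 6 (adjusted p = 0.0561 to 0.131). Adamts20 differed between WSB and C3H, with 1.82, 1.38 and 1.73 FPKM in WSB and 0.645, 0.906 and 0.767 in C3H, a log2 fold change of 1.002 (adjusted p = 0.0286), and passed in 2 of 6.

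No gene of the remaining lists was called in any comparison. This held for the 12 enzymes that build chondroitin sulfate chains, led by B3gat3 at 130 FPKM over the 9 mice, of which 0 to 3 had an unadjusted p under 0.05. It held for the 9 tested sulfotransferases and epimerases, led by Chst11 at 10.6 FPKM, with 0 to 3 such genes, and for 5 genes of hyaluronan breakdown, led by Hyal2 at 2.69 FPKM, with 0 to 2. It held too for the other link proteins, Has1 and the other tenascins, with 0 to 2. Voom weights called none of these except Tnc, between WSB and C3H, while 2 sulfotransferases or epimerases were called in each comparison with C3H when C3H replicate 2 was left out. The highest levels on the other lists were those of Nptxr at 193 FPKM, Spock2 at 159 and Timp2 at 93.2, none of them called.

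**Figure D5:**
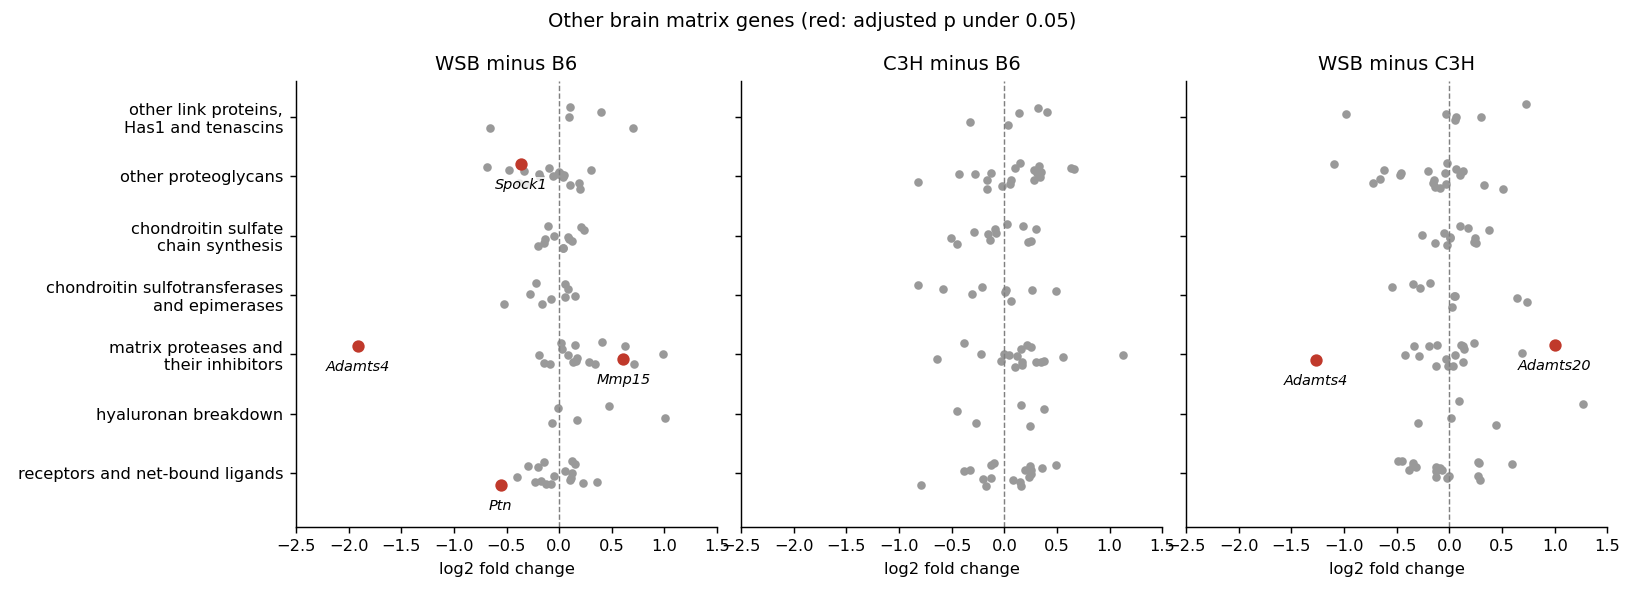
Log2 fold change (horizontal axis) of every tested gene on 7 lists of other brain matrix genes (vertical axis, points spread for legibility) between each pair of strains, with called genes in red. Adamts4 lies farthest from 0 in WSB minus B6, at -1.91, and no gene is red in C3H minus B6.

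Cortical tissue was checked by its markers. The 8 markers of cortical glutamatergic neurons were present in every library, with sums of 680 to 794 FPKM (B6), 745 to 910 (C3H) and 610 to 756 (WSB). Limma called none of them against B6. Between WSB and C3H it called 2 of 8, Rorb as higher and Cux2 as lower in WSB. In that comparison 4 of 8 did not overlap, beside 28.6% of all tested genes. Markers of neighbouring regions were present too and varied within strains, with striatal sums of 138 to 773 FPKM and choroid plexus sums of 65.4 to 769 over the 9 mice. Neither list had a gene called by limma or with voom weights in any comparison, and 1 choroid plexus marker had an unadjusted p under 0.05, in WSB against B6. Microglial sums were 146 to 157 (B6), 154 to 186 (C3H) and 130 to 135 (WSB). Between WSB and B6, 2 of 8 markers were called lower. In that comparison 6 of 8 did not overlap, with Aif1 above B6 and the others below. Further calls were 1 of 8 higher in C3H than in B6 and 2 of 8 lower in WSB than in C3H. Hippocampal sums were 41.4 to 58.3 (B6), 53.8 to 60.4 (C3H) and 73.8 to 85.5 (WSB). Limma called 1 of 8 markers, Wfs1, higher in WSB than in B6 and than in C3H. Wfs1 was the highest of these markers in every mouse and weighs most in the sums. It averaged 30.87 FPKM in B6, 36.08 in C3H and 56.01 in WSB. Between WSB and B6, 2 of 8 did not overlap, Wfs1 and Neurod1, both higher in WSB. The median log2 fold change of the 8 hippocampal markers there was 0.51. Blood markers summed to 217 to 254 (B6), 632 to 1010 (C3H) and 249 to 329 (WSB). Of 5 blood markers, 3 were called higher in C3H than in B6, 1 higher and 1 lower in WSB than in B6, and 3 lower in WSB than in C3H. Over all tested genes, 5.90% were called between WSB and B6, 4.64% between C3H and B6 and 5.74% between WSB and C3H. Between WSB and B6, 26.0% of all tested genes did not overlap. The part of dissection, microglia or blood in the differences of the members was not tested.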

How the data were processed

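Cortex RNA of 3 male mice per strain was sequenced as paired-end reads. The authors' methods give Cutadapt for trimming, HTSeq for counting per gene and DESeq2 for testing, and the authors deposited FPKM values of 54532 genes in 9 libraries. The submitters' processing notes name STAR, HTSeq and DESeq2. The genome build, annotation release and strand setting are not given in the sources used here. Of the gene identifiers, 53499 had the same coordinates in GENCODE M21 (GRCm38), all 10 members among them. Strains came from the sample labels, and each library is a separate mouse.

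Reads were recovered from FPKM times gene length, which came out whole within 0.001 of a read. Their totals on genes were 17651630 to 21562429 (B6), 19042306 to 19433751 (C3H) and 16317439 to 17784118 (WSB), which bounds counting error only. Strains were compared pairwise with limma 3.58.1 in R 4.3.3 (lmFit, eBayes with trend, two-sided) on log2(FPKM + 0.1), leaving out genes that averaged under 0.1 FPKM, with Benjamini-Hochberg adjustment over all genes tested. This scale understates changes of low genes. The procedure was tested on simulated data. Libraries of one strain differed by a chi-square of 7.29 to 22.0 per gene, so none was a duplicate.

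The members, gene lists and tests were chosen with earlier results of these data known. Genes named are all members, Hapln2, Hapln3, the highest-expressed gene of each other matrix list, up to 3 called genes per list and comparison, the 3 genes most like each called member, and the interneuron markers Pvalb and Kcnc1. Tnc, Chtf8 and the other markers were named with their values in view. Alternatives were other pseudocounts, filters and scalings, voom weights, eBayes without a trend, a joint fit of all 3 strains, a block for the replicate number, removal of a GC trend and leaving out each mouse. Figures were drawn with matplotlib 3.10.9.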

Additional observations from a re-analysis of the deposited data

Results flagged for a closer look

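By the direct comparison of WSB with C3H in limma, 2 matrix proteases differed between these strains. Against B6, limma called Adamts4 in WSB only and Adamts20 in neither strain, while voom weights also called Adamts20 in WSB. Adamts4 was lower in WSB than in C3H, with a log2 fold change of -1.27 (adjusted p = 0.0147, lower in all 3 WSB mice than in all 3 C3H mice). The value was -1.39 to -1.10 with each mouse left out in turn and passed in 3 of 6 such fits, being lost without C3H replicate 1 (adjusted p = 0.0634), C3H replicate 3 (adjusted p = 0.0542) or WSB replicate 1 (adjusted p = 0.0517). Adamts20, a protease of the same family, was higher in WSB than in C3H, with a log2 fold change of 1.002 (adjusted p = 0.0286, higher in all 3 WSB mice). It passed in 2 of 6 such fits, those without C3H replicate 2 (adjusted p = 0.0288) and without WSB replicate 2 (adjusted p = 0.0493).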

How the results depend on the processing

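Ncan and Adamts4 in WSB and Tnr in C3H kept their direction and their call under every alternative run. Among these alternatives, median-ratio rescaling is no independent check. It left the ratios between libraries as they were, because the deposited values were already scaled in this way. Spock1 in WSB lost its call with all 3 strains in one fit (adjusted p = 0.430), where C3H replicate 3 had 12.3 FPKM beside 21.8 and 26.6 in the other C3H mice. Hapln4 in C3H lost its call with eBayes without a trend (adjusted p = 0.0542), where 1 member was called between C3H and B6, and without single mice. Members called between WSB and B6 numbered 2 with a filter of 1 FPKM, with rescaling to total reads, with the GC trend removed and with the replicate block, and 3 with all 3 strains in one fit and with voom weights. The added genes were Hapln4 (rescaling, replicate block, all strains, voom) and Tnr (filter, GC trend, all strains, voom), so both lie close to the threshold in WSB. Ncan in C3H passed with all 3 strains in one fit (adjusted p = 0.0377) and with the GC trend removed. The cause was not tested.

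The labels do not say that a replicate number marks a shared litter or day, and the main fit used no block for it. The deviations of libraries with the same number correlated at -0.06 to 0.05 over genes averaging 0.1 FPKM or more. Such a correlation cannot exclude a shared day that affects only some genes. With the replicate block 754 genes were called between WSB and B6, 480 between C3H and B6 and 531 between WSB and C3H, in place of 1224, 956 and 1182. Leaving out each mouse gave 651 to 825, 498 to 2301 and 475 to 2002 genes, the highest of both ranges with C3H being those without C3H replicate 2, and 1 to 2 members between C3H and B6. Voom weights gave 1488 genes between C3H and B6.

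Some fold changes changed sign, among them values near 0 and that of Bcan in C3H. With the GC trend removed these were Acan in WSB at -0.0118, Bcan in C3H at -0.00584 and, for WSB against C3H, Bcan at 0.0699, Vcan at -0.0300 and Hapln1 at -0.15. Has3 in C3H became 0.000159 with a pseudocount of 0.01, 0.0152 with voom weights and 0.0225 with the GC trend removed. Leaving out each mouse gave -0.0782 to 0.127 for Acan and -0.169 to 0.0591 for Has3 in WSB, and -0.14 to 0.10 for Acan and -0.10 to 0.13 for Has3 in C3H. For WSB against C3H it gave -0.0882 to 0.167 for Acan, -0.164 to 0.0121 for Bcan, -0.17 to 0.37 for Hapln1, -0.112 to 0.0124 for Has3, -0.26 to 0.30 for Spock1 and -0.0477 to 0.153 for Mmp15. None of these was called. Over the 9 tested members, Adamts4, Adamts20, Ptn, Spock1 and Mmp15, 625 single-gene values kept direction and side of the threshold, 15 gained a call, 37 lost one and 27 changed sign. Low counts limit Acan, Has2 and Has3.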

Other observations

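Some genes tracked a called member closely over the 9 libraries. Likeness was measured as the root-mean-square difference of mean-centred log2(FPKM + 0.1), among 13009 genes averaging 1 FPKM or more, and is a description without a test. Nim1k (0.06), Hp1bp3 (0.07) and Zmat3 (0.07) were closest to Ncan, whose own spread was 0.20. Hp1bp3 averaged 34.5 FPKM in B6, 26.3 in C3H and 24.6 in WSB. Closest to Hapln4 (spread 0.31) were Gipc1 (0.08), Crlf2 (0.09) and Sssca1 (0.10), and Gipc1 averaged 51.1, 75.4 and 65.6 FPKM in the same order. Aqr (0.09), Slc35a5 (0.09) and Samd4 (0.09) were closest to Tnr (spread 0.28), and Slc35a5 averaged 4.88, 3.13 and 3.87 FPKM.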
